A study of Mus musculus with 6 samples.

Results

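Accessible chromatin at the start sites of the mouse Zfp genes was described in quadriceps femoris, a thigh muscle, of mice with and without the gene Prr14. The members were the peaks that the deposited table places in its promoter class nearest the start site (Promoter1k) and annotates to a gene whose symbol is Zfp, a number and, at most, trailing letters. This rule found 339 peaks at 306 genes, out of 75134 peaks in the table, and 13994 peaks of the same class belonged to other genes. A gene was taken as clustered when another member gene had a member peak within 100 kb on the same chromosome. By this measure 176 peaks at 167 genes were clustered, in 40 clusters of 2 to 20 genes, and 163 peaks at 139 genes were isolated. The peak centre lay within 1000 bases of the annotated start for 331 of the 339 peaks.

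ATAC-seq, which reads open chromatin from where a transposase can insert adapters, was run on nuclei of frozen muscle from mice labelled Prr14-WT (3 libraries, replicates 3, 4 and 8) and Prr14-KO (3 libraries, replicates 4, 5 and 7). The series title names mechanotransduction, myofibre identity and the factor MEF2C as the study's subject. The sources used here give no strain, age, sex, deleted stretch of Prr14 or Cre driver. Whether the libraries of a genotype came from different animals is not stated either, so every p-value below measures the spread between libraries, part of which may be technical.

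Most Zfp genes encode DNA-binding proteins made of repeated zinc fingers, and a large share of these carry a KRAB domain. A KRAB domain recruits TRIM28, which brings the methyltransferase SETDB1 and the heterochromatin protein HP1 to the bound site, often a transposable element. The family grew by tandem duplication, so its genes lie in clusters, and the 3′ ends of many such genes carry the HP1-bound histone mark themselves. PRR14 binds HP1 and links heterochromatin to the nuclear lamina. The symbol does not guarantee the protein type: Zfp36 encodes tristetraprolin, an RNA-binding protein that promotes mRNA decay.

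The sequences of 8 promoters are shown first, for the genes whose values are described most closely below. They are the 250 bases before the RefSeq start (GRCm38.p6), 5′ to 3′ in the direction of the gene. Where several starts of a gene had a promoter sequence overlapping the member peak, the one farthest upstream was taken. It need not be the first start of the gene. Capitals mark short words that a search of both strands found: the CCAAT box (CCAAT, or ATTGG on the other strand), its longer form CCAATCAG, and the GC box GGGCGG. Zfp52 and Zfp963 had called peaks. Zfp54 is a neighbour of Zfp52 with a value of the opposite sign, and Zfp687 had the highest level. The remaining 4 were among the largest differences that did not pass the test.
Zfp52 (chr17:21535289-21535538, plus strand): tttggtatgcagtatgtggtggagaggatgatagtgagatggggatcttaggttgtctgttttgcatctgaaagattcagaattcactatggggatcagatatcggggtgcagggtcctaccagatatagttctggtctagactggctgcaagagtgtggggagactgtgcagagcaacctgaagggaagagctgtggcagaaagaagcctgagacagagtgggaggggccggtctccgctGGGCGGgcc
Zfp54 (chr17:21422977-21423226, plus strand): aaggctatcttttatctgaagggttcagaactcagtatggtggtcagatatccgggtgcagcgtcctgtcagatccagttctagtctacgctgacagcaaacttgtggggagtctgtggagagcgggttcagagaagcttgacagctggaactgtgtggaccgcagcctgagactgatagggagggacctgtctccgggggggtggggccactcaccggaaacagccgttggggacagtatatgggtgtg
Zfp963 (chr8:69749963-69750212, minus strand): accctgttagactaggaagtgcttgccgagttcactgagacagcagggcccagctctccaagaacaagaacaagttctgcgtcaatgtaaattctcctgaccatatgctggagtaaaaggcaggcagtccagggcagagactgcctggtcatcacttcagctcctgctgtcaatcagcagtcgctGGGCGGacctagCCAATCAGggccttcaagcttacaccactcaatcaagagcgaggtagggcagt
Zfp932 (chr5:109996260-109996509, plus strand): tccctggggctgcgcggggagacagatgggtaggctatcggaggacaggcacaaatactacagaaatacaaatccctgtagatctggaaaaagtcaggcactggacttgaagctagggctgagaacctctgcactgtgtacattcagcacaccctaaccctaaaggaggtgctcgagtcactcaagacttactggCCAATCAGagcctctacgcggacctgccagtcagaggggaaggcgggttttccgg
Zfp937 (chr2:150217849-150218098, plus strand): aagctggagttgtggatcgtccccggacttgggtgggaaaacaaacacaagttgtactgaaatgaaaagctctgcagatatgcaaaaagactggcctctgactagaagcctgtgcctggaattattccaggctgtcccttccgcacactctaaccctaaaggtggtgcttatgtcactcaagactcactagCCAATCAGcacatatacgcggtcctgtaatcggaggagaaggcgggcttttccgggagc
Zfp950 (chr19:61140841-61141090, minus strand): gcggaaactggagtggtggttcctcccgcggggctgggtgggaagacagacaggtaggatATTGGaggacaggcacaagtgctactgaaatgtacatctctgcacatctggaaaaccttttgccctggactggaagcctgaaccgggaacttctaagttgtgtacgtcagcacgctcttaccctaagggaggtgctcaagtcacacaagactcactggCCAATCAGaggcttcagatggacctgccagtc
Zfp873 (chr10:82047873-82048122, plus strand): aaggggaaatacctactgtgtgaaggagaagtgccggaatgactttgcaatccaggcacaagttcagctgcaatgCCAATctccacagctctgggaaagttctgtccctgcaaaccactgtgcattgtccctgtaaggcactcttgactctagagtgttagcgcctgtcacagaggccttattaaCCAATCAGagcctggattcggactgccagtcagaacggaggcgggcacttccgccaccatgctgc
Zfp687 (chr3:95015458-95015707, minus strand): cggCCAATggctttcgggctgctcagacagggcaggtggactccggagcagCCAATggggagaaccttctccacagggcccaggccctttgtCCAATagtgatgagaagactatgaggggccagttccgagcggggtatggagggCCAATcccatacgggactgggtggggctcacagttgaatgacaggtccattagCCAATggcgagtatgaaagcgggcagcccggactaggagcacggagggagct

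These sequences show relatives and strangers side by side. Zfp932 and Zfp937, on chromosomes 5 and 2, were identical at 68.9% of aligned positions over the 250 printed bases. The value for Zfp950 and Zfp932 was 65.8%. The median over 342 pairs of named promoters was 51.4%. In Zfp932, Zfp937, Zfp950, Zfp873 and the called Zfp963 the word CCAATCAG stands near the right end of the printed run. Zfp141, also among the largest differences that did not pass, is not printed and lacks this word. Zfp52 and Zfp54, neighbours on chromosome 17, were identical at 55.2%. Zfp687 has 5 CCAAT boxes and no GC box in the printed stretch. Zfp937 has a near copy at Zfp442, 30 edits away over 300 bases, so how reads were divided between these promoters is uncertain.

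RefSeq windows (250 bases before to 50 after a start) overlapped 251 of the 339 member peaks, at 250 genes. Clustered genes had windows poorer in G and C, with a median of 54.3% against 59.3% at isolated genes and 61.7% at promoter-class peaks of other genes; the median over all 32851 windows was 52.7%. The median number of CG dinucleotides was 12 at clustered genes, 18 at isolated genes, 21 at other promoter-class peaks and 7 over all windows. The GC box GGGCGG, a word bound by SP1-like factors, was in 36.6% of clustered, 51.9% of isolated and 66.5% of other promoter-class windows, and in 35.7% of all windows. CCAAT, the word bound by NF-Y, was in 49.0%, 43.0% and 38.0%, against 37.4% of all windows.

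The longer word CCAATCAG, which was chosen after the sequences were seen, was in 13.9% of member windows, 5.75% of other promoter-class windows and 4.10% of all windows. It overlaps CCAAT by construction. It was also in 17.8% of the windows of Zfp genes that lay on no peak. ACTACAA, a core of the word bound by ZNF143, the human counterpart of the member Zfp143, was in 7.84% of clustered and 7.41% of isolated windows, against 4.11% and 3.24% for other promoter-class and all windows. TCGCGAGA, a part of a palindromic word of CpG island promoters, was in 0 of 153 clustered windows and 5.19% of isolated ones, against 2.36% and 0.995%. The MEF2 consensus was in 1.96% of clustered and 1.48% of isolated windows, against 1.67% of other promoter-class windows and 3.19% of all windows. Members with CCAATCAG (33 peaks) had a median log2 fold change of 0.10 and those without it (218 peaks) 0.09, KO over WT.

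RefSeq lists 394 protein-coding genes under the same naming rule, of which 306 (77.7%) had a member peak in muscle. With neighbours counted from RefSeq gene spans, 184 of 228 clustered genes (80.7%) and 122 of 166 isolated genes (73.5%) had one. Chromosome 4 stood low with 10 of 27 genes, and chromosome 2 with 14 of 27, while 17 of 17 genes on chromosome 6 had a member peak. Of the 88 genes without one, 38 had a peak of another class annotated to them and 50 had no peak annotated to them. A start can still lie on a peak annotated to another gene. Of the 73 such genes with a window, 16 had a window on a peak of any class and any gene. Near copies within 30 edits of 300 bases were found for 15 of the 73 genes without a member peak that had a window. They were found for 11 of the 250 member genes with a window on their member peak. Zfp57, which guards genomic imprints, had no peak annotated to it, and no Zfp264 promoter was among the members.

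Depth and cell makeup bear on every value below. Between 7608514 and 12061822 counts fell in the peaks of a library, and all 339 members passed the filter on low counts, as did 73896 peaks of the whole table. All 9 listed muscle fibre markers had promoter peaks, with summed levels of 1059 to 1634 CPM (counts scaled to a fixed library total) in WT and 1168 to 1266 CPM in KO, and 2 of their 20 peaks were called lower in KO, where 1.05% of other promoter peaks and 4.23% of all tested peaks were. Of the 4 macrophage markers and the 2 Schwann cell markers none had a promoter peak. Endothelial marker peaks summed to 10.9 to 19.9 CPM in WT and 9.37 to 21.5 CPM in KO, and fibro-adipogenic ones to 94.0 to 109 and 88.5 to 119 CPM, with none called. Both smooth muscle markers had a peak, and their sum was 11.3 to 12.6 CPM in WT and 13.6 to 13.9 CPM in KO, higher in every KO library with neither peak called. The 1 satellite cell peak had 6.997 to 13.0 CPM in WT and 10.7 to 16.03 CPM in KO, and the 1 adipocyte peak 9.94 to 13.4 and 10.04 to 16.4 CPM. In bulk muscle, fewer nuclei of a type and less open chromatin per nucleus cannot be told apart. The part of cell makeup in the results, smooth muscle included, was not tested. The Prr14 promoter peak did not differ detectably (log2 fold change -0.03, SE 0.18, adjusted p = 0.961 by edgeR), and it does not check the genotype labels, since the deleted part is not known.

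Few zinc finger promoters passed the test between the genotypes. At 3 of 339 peaks (0.885%) accessibility was higher in KO by edgeR's quasi-likelihood test with Benjamini-Hochberg adjustment over all tested peaks, and at 0 it was lower. Among all tested peaks 2.77% were called higher and 4.23% lower, and among promoter peaks of other genes 1.05% were called higher and 1.05% lower. The members' share called higher was thus near that of other promoters. At an unadjusted p below 0.05 there were 15 higher members and 1 lower, 4.72% of the members together. The same count gave 4.01% higher and 3.09% lower for other promoters and 7.05% higher and 9.92% lower for all peaks. DESeq2 called 3 members higher and 0 lower, and limma-voom 3 higher and 1 lower.

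The KO libraries all lay above the WT libraries at 30 members (8.85%) and all below them at 4 (1.18%). The corresponding shares were 6.73% and 4.53% at promoter peaks of other genes and 9.17% and 11.2% over all peaks. Isolated genes held 19 of the 30 higher members (11.7% of isolated peaks) and clustered genes 11 (6.25% of clustered peaks). Of the 4 lower ones, 3 were clustered (1.70% of clustered peaks) and 1 was isolated (0.613% of isolated peaks).

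The median log2 fold change of the members was 0.08, with quartiles of -0.03 and 0.22 and a range from -1.045 to 0.75. Clustered genes had a median of 0.06, isolated genes 0.10, promoter peaks of other genes 0.06 and all tested peaks -0.01. Values above 0 made up 61.9% of clustered, 69.9% of isolated and 62.8% of other promoter peaks. The clustered median was near 0 (-0.0003) with TMM factors from promoter peaks and -0.01 without KO replicate 7; the members' median without that library was 0.02. The standard error of a member's value had a median of 0.20. For 322 of the 339 members the value plus or minus 2 SE stayed inside a 2-fold change, and for 196 inside a 1.5-fold change.

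**Figure D1:**
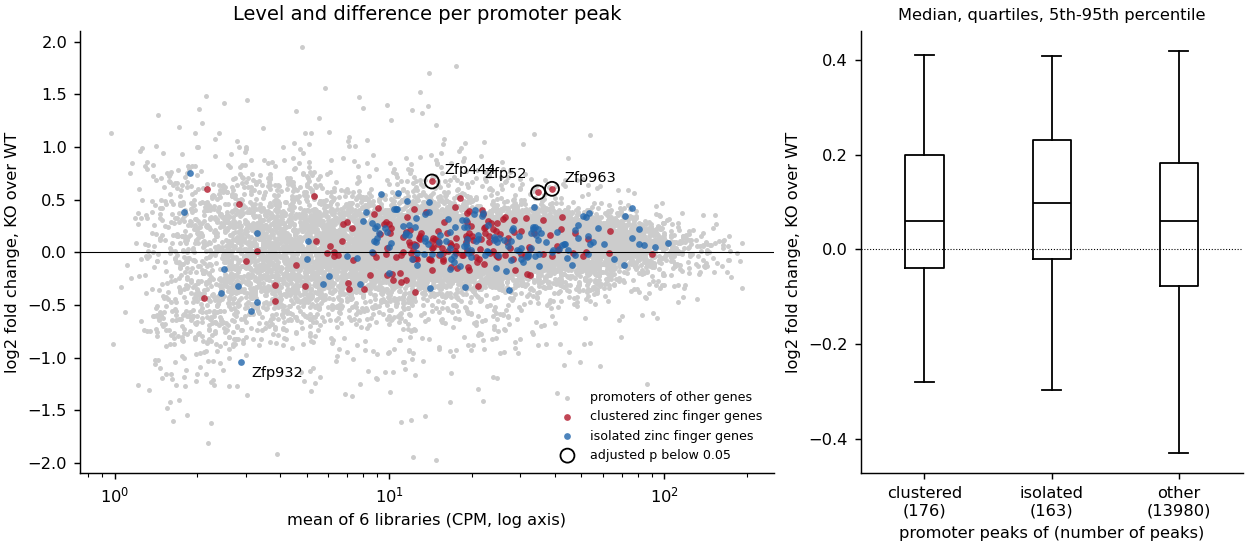
Left, the log2 fold change of KO over WT (y axis) against the mean level of the 6 libraries in CPM (x axis, log scale) for each promoter peak. Red points are clustered and blue points isolated zinc finger genes, grey points are promoters of other genes (19 of them above 200 CPM are not drawn), and circles mark the 3 peaks with an adjusted p below 0.05. Right, boxes give the median and quartiles and whiskers the 5th and 95th percentiles for 176 clustered, 163 isolated and 13980 other promoter peaks, with medians of 0.06, 0.10 and 0.06.

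By level, the 3 equal groups of 113 members had medians of 0.07, 0.10 and 0.08 from the lowest levels to the highest. Promoters of other genes in the same level ranges had medians of 0.02, 0.06 and 0.08. Clustered and isolated genes had median peak widths of 1001 and 1230 bases and median levels of 16.7 and 19.8 CPM. Per kilobase of peak the levels were close, at 16.1 and 16.3 CPM per kb. Zfp78, with 89.9 CPM over the peak, was at 72.2 CPM per kb, and Zfp687, with 103 CPM, at 36.8 CPM per kb.

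The balance between clustered and isolated promoters was much the same in every library. The log2 ratio of summed counts, clustered over isolated, was -0.32, -0.32 and -0.29 in WT replicates 3, 4 and 8. It was -0.34, -0.33 and -0.31 in KO replicates 4, 5 and 7. The groups overlapped, and the KO mean was 0.016 below the WT mean (KO minus WT -0.016, SD 0.019 in WT and 0.012 in KO, n = 3 each). With neighbours taken from RefSeq genes, an alternative added after the data were seen, the difference was 0.0014.

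The typical level of a member moved from library to library together with that of other promoters. The members' median was 18.2, 18.1 and 16.1 CPM in WT replicates 3, 4 and 8 and 17.1, 18.3 and 20.05 CPM in KO replicates 4, 5 and 7. WT replicate 8 was lowest and KO replicate 7 highest, and the groups overlapped. Promoters of other genes had medians of 21.0, 19.3 and 18.2 CPM in the same WT libraries and 18.5, 20.3 and 22.2 CPM in the KO libraries, with the same libraries at the ends. Members held 0.788%, 0.710% and 0.675% of all peak counts in WT and 0.734%, 0.796% and 0.876% in KO.

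**Figure D2:**
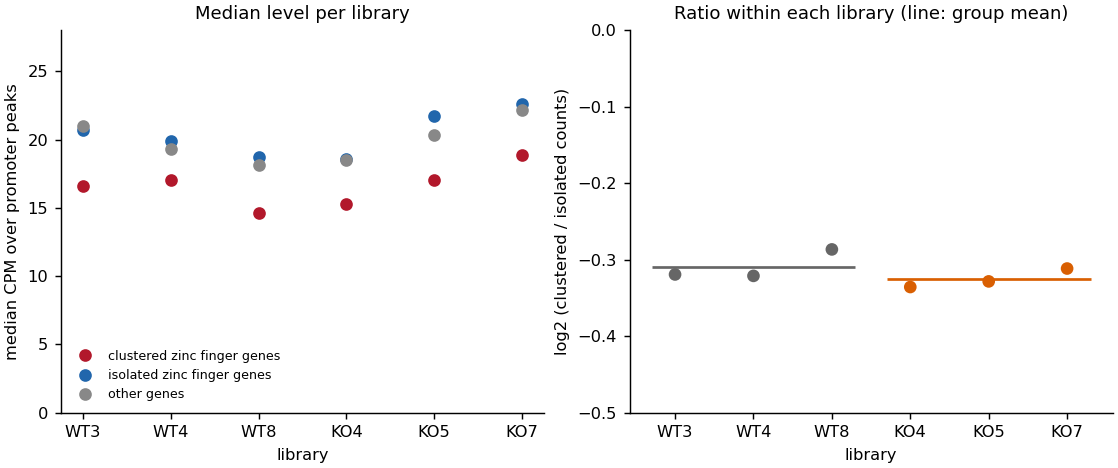
Left, the median level in CPM (y axis) over promoter peaks of clustered, isolated and other genes in each library (x axis). Right, the log2 ratio of summed counts over clustered and isolated zinc finger promoters in each library, with lines at the group means. The medians of all 3 sets are lowest in WT replicate 8 or KO replicate 4 and highest in KO replicate 7, and the ratio stays between -0.34 and -0.29.

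All 3 called peaks were at clustered genes (1.70% of 176) and were higher in KO, and edgeR called 0 of 163 peaks at isolated genes. At an unadjusted p below 0.05 the order was the other way, with 3.98% of clustered peaks (7 higher, 0 lower) and 5.52% of isolated peaks (8 higher, 1 lower), beside 7.10% of other promoter peaks. The difference between clustered and isolated genes was not tested. Zfp52 (ENSMUSG00000051341, GRCm38 chromosome 17, 21534355 to 21535965), the promoter printed above, is one of 9 neighbouring zinc finger genes. Its peak had 25.1, 30.5 and 28.3 CPM in WT replicates 3, 4 and 8 and 40.04, 39.8 and 44.8 CPM in KO replicates 4, 5 and 7. Each KO library was above each WT library, and the KO libraries were close together. The peak rose from 27.99 ± 2.74 to 41.5 ± 2.80 CPM (SD, n = 3 each), by 0.57 on a log2 basis (SE 0.19, adjusted p = 0.0348 by edgeR). An upstream peak annotated to Zfp52 (21531749 to 21533026) had 22.1 ± 0.0719 and 24.2 ± 3.63 CPM (log2 fold change 0.13, adjusted p = 0.824 by edgeR). Another, farther upstream (21515332 to 21517106), gave -0.02 (adjusted p = 0.981 by edgeR). Both lie within the RefSeq span of the neighbouring gene Zfp53 (21488934 to 21533201). The Zfp52 call was lost without WT replicate 3 (adjusted p = 0.171), without any one KO library (0.0820 for replicate 4, 0.0976 for 5, 0.109 for 7), with promoter TMM factors (0.0577) and with the authors' library factors (0.219). Its adjusted p ran from 0.00992 to 0.219 and its log2 fold change from 0.51 to 0.77 over 13 alternatives in edgeR, DESeq2 or limma.

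No other promoter peak of the cluster of Zfp52 was called. Zfp54 in the same cluster had 15.4, 14.8 and 11.7 CPM in WT and 12.02, 9.95 and 10.5 CPM in KO. The groups overlapped, and the log2 fold change was -0.38 (SE 0.22, adjusted p = 0.397 by edgeR). Between them, Zfp51 gave 0.05 and Zfp53 gave -0.14. Zfp948, the next gene with a member peak on the other side of Zfp52, gave 0.01. The 9 promoter peaks of this cluster had a median of 0.01, with 5 above 0. Outside promoters, a weak intergenic peak annotated to Zfp51 (21438767 to 21439135) was called higher. It had 1.95, 1.84 and 1.84 CPM in WT and 5.65, 5.92 and 3.94 CPM in KO, without overlap (log2 fold change 1.45, SE 0.37, adjusted p = 0.00319 by edgeR).

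Zfp963 (ENSMUSG00000092260, chromosome 8, 69749565 to 69750597) is in a cluster of 4 genes. Its peak had 40.5, 29.7 and 22.6 CPM in WT and 40.5, 49.0 and 52.0 CPM in KO. WT replicate 3 was level with KO replicate 4, so the groups overlapped slightly, and WT replicate 8 was the lowest. The peak rose from 31.0 ± 9.01 to 47.2 ± 5.98 CPM (SD, n = 3 each; log2 fold change 0.60, SE 0.18, adjusted p = 0.0194 by edgeR). Leaving out WT replicate 8 (log2 fold change 0.47, adjusted p = 0.0942), KO replicate 5 (0.61, adjusted p = 0.112) or KO library 7 (0.55, adjusted p = 0.0851) ended the call, as did the authors' library factors (0.79, adjusted p = 0.199). Over 13 alternatives in edgeR, DESeq2 or limma the adjusted p ran from 0.00325 to 0.199.

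Other promoters beside Zfp963 had values of both signs, none called. Zfp868 gave 0.33 at its main peak (SE 0.19, adjusted p = 0.379 by edgeR) and 0.46 at a weak second peak of 2.84 CPM. Zfp964 gave 0.28 (SE 0.20, adjusted p = 0.531 by edgeR). Zfp866 has a pair of promoter peaks that differed in sign: 0.31 (SE 0.18) at 69774469 to 69775570 and -0.32 (SE 0.20) at 69790442 to 69792380. The second lies outside the RefSeq span of Zfp866 (69761324 to 69774911) and is assigned to it by the deposited annotation. The difference between the Zfp866 peaks was not tested.

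Zfp444 (ENSMUSG00000044876, chromosome 7, 6184002 to 6185635) encodes a zinc finger protein with a SCAN domain, and its called peak lies inside the gene, 1243 bases from the annotated start nearest to it. The peak had 13.3, 9.85 and 9.87 CPM in WT and 18.8, 19.5 and 14.4 CPM in KO. Each KO library was above each WT library, though KO replicate 7 was close to WT replicate 3. It rose from 11.0 ± 1.97 to 17.6 ± 2.78 CPM (SD, n = 3 each; log2 fold change 0.67, SE 0.21, adjusted p = 0.0293 by edgeR). The peak over the first start of Zfp444 (6171287 to 6172882) had 45.7, 52.3 and 41.6 CPM in WT and 37.1, 52.4 and 49.6 CPM in KO. There the groups overlapped fully, at 46.5 ± 5.38 and 46.4 ± 8.16 CPM (log2 fold change -0.004, SE 0.18, adjusted p = 0.996 by edgeR). The difference between the Zfp444 peaks was not tested.

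The Zfp444 call was lost under 6 of 13 alternatives. They were 4 leave-outs, promoter TMM factors (log2 fold change 0.63, adjusted p = 0.0800) and the authors' library factors (0.87, adjusted p = 0.110). Without WT replicate 4 the log2 fold change was 0.62 (adjusted p = 0.0726), and without WT replicate 8 it was 0.65 (adjusted p = 0.0601). Dropping KO replicate 4 gave 0.62 (adjusted p = 0.147) and dropping KO replicate 5 gave 0.63 (adjusted p = 0.198). The adjusted p ran from 0.0137 to 0.198 in edgeR, DESeq2 or limma. In the authors' deposited table, 0 of 338 members with an adjusted p passed 0.05, where 2.44% of all peaks passed as higher and 0.872% as lower. The authors' deposited table gives Zfp52 a log2 fold change of 0.77 (adjusted p = 0.0632, DESeq2), Zfp444 0.87 (adjusted p = 0.0718) and Zfp963 0.79 (adjusted p = 0.155). The median log2 fold change over all peaks of that table was 0.19.

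**Figure D3:**
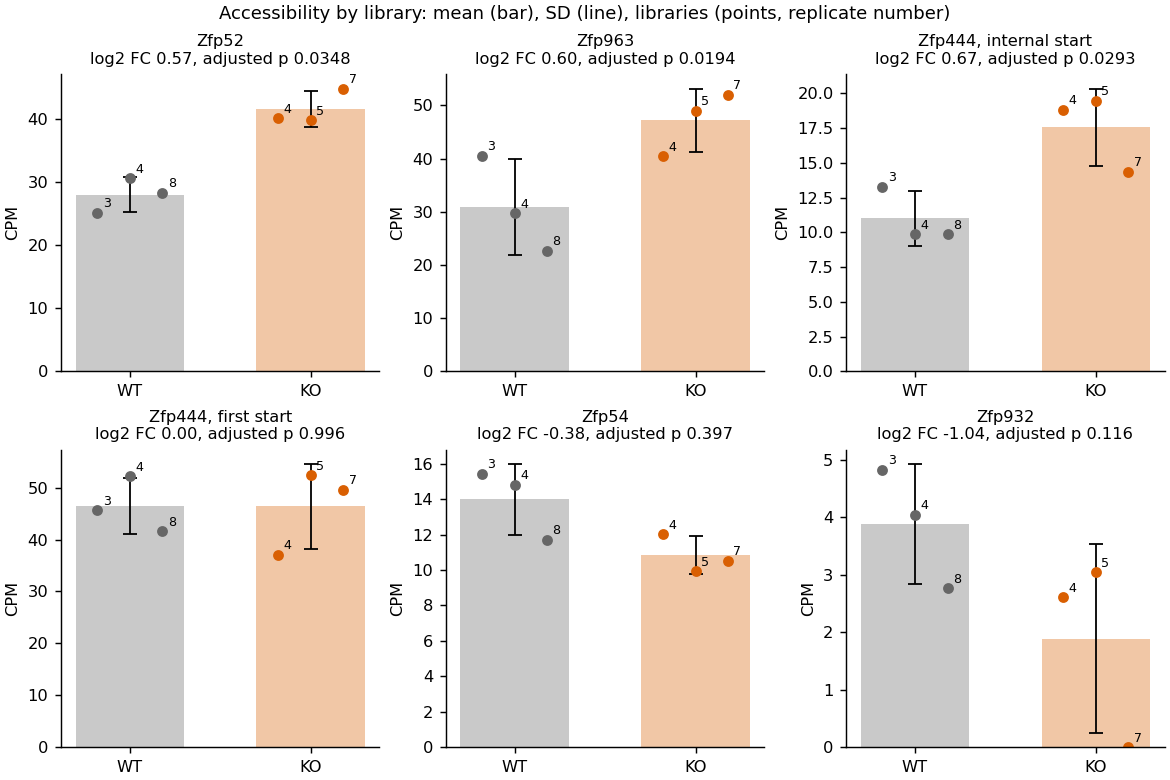
Accessibility in CPM (y axis, from 0) in WT and KO at the 3 called peaks (Zfp52, Zfp963 and the internal peak of Zfp444) and at the first start of Zfp444, Zfp54 and Zfp932. Bars are means of 3 libraries, lines the SD, and points the libraries with their replicate number. KO lies above WT without overlap at Zfp52 and at the internal peak of Zfp444, and the point of KO replicate 7 is at 0 for Zfp932.

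The 6 largest differences that did not pass were mostly at weak peaks. Zfp932, which represses endogenous retroviral elements in mouse embryonic stem cells, had 4.84, 4.05 and 2.76 CPM in WT and 2.61, 3.04 and 0 CPM in KO. The log2 fold change of -1.045 (SE 0.41, adjusted p = 0.116 by edgeR) leans on KO replicate 7, which had no count at this peak. With limma-voom Zfp932 was called lower (log2 fold change -2.45, adjusted p = 0.00433), and over the 13 alternatives its adjusted p ran from 0.00433 to 0.824. Without KO replicate 7 its value was -0.44.

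Zfp950 had 6.89, 7.18 and 8.56 CPM in WT and 11.9, 9.86 and 11.4 CPM in KO. The groups did not overlap, and the log2 fold change was 0.56 (SE 0.24, adjusted p = 0.167 by edgeR). Zfp873 had 10.9, 6.63 and 8.56 CPM in WT and 7.84, 13.9 and 16.6 CPM in KO, with KO replicate 4 inside the WT range. Its log2 fold change was 0.56 (SE 0.23, adjusted p = 0.134 by edgeR), and without KO replicate 4 it was 0.81 (adjusted p = 0.0384; 0.0384 to 0.605 over the 13 alternatives, edgeR, DESeq2 or limma). These promoters share the word CCAATCAG with Zfp963, which was called higher, and with Zfp932, whose value has the opposite sign.

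Zfp937, which resembles Zfp932 in sequence, had 1.75, 1.38 and 2.11 CPM in WT and 0.941, 2.22 and 4.67 CPM in KO. Its log2 fold change of 0.60 (SE 0.49, adjusted p = 0.618 by edgeR) turned to -0.09 without KO replicate 7. Zfp141 gave 0.75 (SE 0.54, adjusted p = 0.548 by edgeR) at 1.88 CPM, and KO replicate 7, at 0.915 CPM, was below all WT libraries. Zfp652 gave -0.56 (SE 0.39, adjusted p = 0.520 by edgeR) at a weak internal start and 0.37 (SE 0.20, adjusted p = 0.321 by edgeR) at its main start, where the level was 19.1 ± 3.44 CPM in WT and 24.7 ± 2.61 CPM in KO.

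None of the 5 members with the highest CPM over the whole peak was called. Zfp687, printed above with its 5 CCAAT boxes, had 107, 103 and 89.8 CPM in WT and 95.98, 104 and 118 CPM in KO (log2 fold change 0.09, SE 0.17, adjusted p = 0.881 by edgeR). Zfp143, a transcriptional activator of many housekeeping and small RNA genes, had 96.1, 82.2 and 68.3 CPM in WT and 74.96, 82.5 and 102 CPM in KO (log2 fold change 0.07, SE 0.17). Both sets of libraries overlapped. Zfp78 gave -0.02, Zfp46 gave 0.08 and the upstream peak of Zfp36 gave 0.05, each with an SE of 0.17; the signs of Zfp143, Zfp78 and Zfp36 turn under other settings given in the closing section. The weakest peaks were at Zfp804b (1.79 CPM, log2 fold change 0.39, SE 0.56), Zfp141, Zfp820 (2.11 CPM, -0.43, SE 0.50), Zfp937 and an internal start of Zfp410 (2.44 CPM, -0.39, SE 0.45). At that depth the SE exceeded the difference at Zfp804b, Zfp820 and Zfp410.

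A few members with well-known roles, picked after their values were seen, gave no call. Zfp809, which recognises a retroviral primer binding site and starts its silencing, had means of 25.4 ± 3.43 (WT) and 31.3 ± 5.75 CPM (KO; SD, n = 3 each; log2 fold change 0.30, SE 0.19, adjusted p = 0.446 by edgeR). Zfp445, a guardian of imprints beside Zfp57, gave 0.17 (SE 0.22, adjusted p = 0.801 by edgeR). Zfp423, a regulator of preadipocyte commitment, gave 0.20 (SE 0.21, adjusted p = 0.726 by edgeR).

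Most large clusters held values of both signs. The largest, on chromosome 13 (67060402 to 67814555), held 20 genes with 21 peaks over 754154 bases. Its median log2 fold change was 0.04, with 11 of 21 peaks above 0, from -0.28 at Zfp65 (SE 0.23) to 0.33 at Zfp748 (SE 0.22). On chromosome 7 (29766839 to 30170816), 15 genes with 16 peaks had a median of 0.05, with 9 above 0. Zfp940 was lowest there at -0.21 (SE 0.23) and Zfp27 highest at 0.43 (SE 0.21, adjusted p = 0.235 by edgeR). A second cluster of chromosome 7 (24081506 to 24317153) held 9 genes with a median of 0.04, from -0.29 at Zfp111 to 0.29 at Zfp61. None of these peaks was called.

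Over the 40 clusters, 31 medians were above 0. Promoter peaks of other genes also leaned upward, with 62.8% above 0 and a median of 0.06. The cluster medians ran from -0.43, for 3 genes at Zfp820 on chromosome 17, to 0.32, for the 4 genes around Zfp963. At the low end, Zfp820 itself had 2.11 CPM, and Zfp995, next to it, gave -0.46. Zfp773 and 3 neighbours on chromosome 7 (7120944 to 7210368) had 0 of 4 values above 0 and a median of -0.12. Zfp26 and 4 neighbours on chromosome 9 had 5 of 5 above 0 and a median of 0.21.

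**Figure D4:**
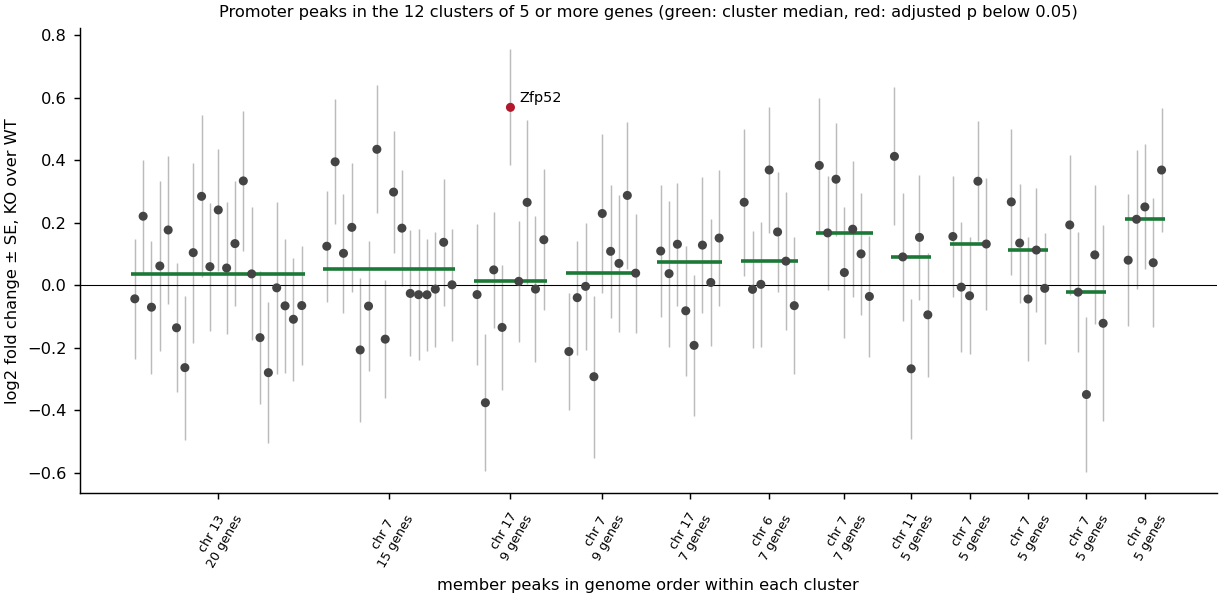
The log2 fold change of KO over WT with its SE (y axis) for each promoter peak in the 12 clusters of at least 5 genes, with peaks in genome order within a cluster (x axis). Green lines are cluster medians and the red point is the called peak, Zfp52. Values lie on both sides of 0 in 11 clusters, and only in the cluster of chromosome 9 are all 5 above 0.

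One cluster lies beside Prr14 itself. Zfp553, Zfp771, Zfp768, Zfp747, Zfp764, Zfp688 and Zfp689 stand in that order on chromosome 7 (127232707 to 127449610), and the Zfp689 peak ends 20676 bases before the Prr14 promoter peak. Zfp689 had 24.4, 24.2 and 26.2 CPM in WT and 22.7, 20.6 and 29.6 CPM in KO, overlapping groups that differed by -0.04 (log2; SE 0.19, adjusted p = 0.963 by edgeR). At the far end of the cluster, Zfp553 had 16.6, 10.6 and 8.16 CPM in WT and 12.7, 14.3 and 19.3 CPM in KO, also overlapping (0.38, SE 0.22, adjusted p = 0.369 by edgeR). Zfp768 gave 0.34 and Zfp771 0.17, and the cluster median was 0.17 with 6 of 7 above 0.

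On the other side of Prr14, Zfp629 had 9.36, 9.11 and 10.4 CPM in WT and 13.1, 11.3 and 16.1 CPM in KO at its main start. The groups did not overlap (log2 fold change 0.49, SE 0.22, adjusted p = 0.213 by edgeR). Within 500 kb of the Prr14 peak, the 10 member peaks at 9 genes had a median of 0.17 with none called. Without KO replicate 7 that median was 0.09, and without WT replicate 3 it was 0.27.

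Chromosome 8 had the highest median among the 12 chromosomes with at least 10 member peaks, which was noticed after the values were seen. Its 26 peaks at 22 genes had a median of 0.23 with 21 above 0, beside 0.06 for 739 promoter peaks of other genes on chromosome 8. The lowest of the 12 was chromosome 18, with a median of -0.02 over 13 peaks. The median level of the chromosome 8 members was 16.6, 13.5 and 15.5 CPM in WT and 16.1, 18.3 and 19.5 CPM in KO, with KO replicate 4 below WT replicate 3. Without KO replicate 7 the chromosome 8 median was 0.12, and without KO replicate 4 it was 0.30. Apart from Zfp963, the highest were Zfp882 at 0.51 (SE 0.20, adjusted p = 0.117 by edgeR) and the weak Zfp868 peak, and none of these others was called.

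Several genes had more than 1 promoter-class peak by the deposited annotation, and their signs could differ. Of 29 genes with 2 to 4 member peaks, 16 had values on both sides of 0, and the median spread between the highest and lowest peak of a gene was 0.23. The widest were Zfp652 (-0.56 and 0.37), Zfp444 (-0.004 and 0.67), Zfp629 (-0.16 and 0.49), Zfp219 (-0.30 and 0.34) and Zfp866 (-0.32 and 0.31). In Zfp652, Zfp629, Zfp219 and Zfp866 the lower value was at the peak with fewer CPM, and in Zfp444 at the one with more. These differences within a gene were not tested.

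Peaks of other classes at the same genes were called in both directions. They were 674 tested peaks at 139 member genes, of which 28 (4.15%) were called higher and 25 (3.71%) lower, against 2.77% and 4.23% of all peaks. Isolated genes held 570 of these peaks, with 23 higher and 24 lower, and clustered genes 104, with 5 higher and 1 lower. Over 50 kb from the start, 9 of 279 peaks were higher and 18 lower, and within 10 kb 8 of 139 were higher and 3 lower. Assignment of a distal peak to a gene follows the deposited annotation. Exonic peaks numbered 29, with 2 higher and 0 lower by edgeR, and peaks over 3′ untranslated regions 31, with 1 higher and 2 lower. At an unadjusted p below 0.05 there were 3 higher and 5 lower exonic peaks, and 3 higher and 6 lower over 3′ untranslated regions. These were 27.6% of the exonic peaks and 29.0% of those over 3′ untranslated regions, beside 21.3% and 19.1% at other genes. Of such peaks at other genes, 3.76% of exonic ones were called higher and 5.32% lower, and 3.27% and 4.69% of those over 3′ untranslated regions.

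Among these, Zfp385b had only lower calls. A peak annotated as intronic (chromosome 2, 77608168 to 77609947) had 44.5, 63.5 and 46.7 CPM in WT and 25.9, 19.7 and 24.2 CPM in KO, far apart without overlap. It fell by 1.15 as a log2 fold change (SE 0.19, adjusted p = 1.51e-07 by edgeR), and 4 of 19 other peaks of Zfp385b fell in all. The Zfp385b promoter gave -0.20 (adjusted p = 0.761 by edgeR).

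Zfp395 and Zfp184 went the other way. An intronic peak of Zfp395 (chromosome 14, 65378717 to 65378977) had 3.91, 2.02 and 3.03 CPM in WT and 13.8, 12.3 and 5.77 CPM in KO. All KO libraries were higher, with KO replicate 7 nearest to WT, and the peak rose by 1.83 (SE 0.28, adjusted p = 1.47e-08 by edgeR), while the Zfp395 promoter gave 0.43 (adjusted p = 0.142 by edgeR). Zfp184 had 3 other peaks, all intergenic and upstream, and 3 of 3 rose. The one centred at -25581 bases from the start (chromosome 13, 21918794 to 21920231) had 6.17, 3.50 and 6.32 CPM in WT and 18.8, 11.3 and 10.4 CPM in KO (1.35, SE 0.25, adjusted p = 4.86e-06 by edgeR). The Zfp184 promoter gave 0.36 (adjusted p = 0.409 by edgeR).

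Zfp703, which encodes a cofactor of transcription, and Zfp462, a protein of heterochromatin, had distal peaks of both signs. At Zfp703 a peak at -262562 bases from the start (chromosome 8, 26713465 to 26716061) fell from 48.5 ± 9.71 to 23.5 ± 0.0477 CPM (SD, n = 3 each; log2 fold change -1.05, SE 0.19, adjusted p = 2.66e-06 by edgeR). Of 25 other peaks of Zfp703, 3 fell and 1 rose. Of 43 other peaks of Zfp462, 4 fell and 1 rose, and its promoter gave 0.04 (adjusted p = 0.960 by edgeR). These genes were singled out after their values were seen, among those with 2 or more called peaks outside promoters.

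Promoters of related families under other names gave 2 calls, both higher in KO, where 1.05% of other promoter peaks were called in that direction. Zscan genes had 10 promoter peaks with a median of 0.14 and 0 called by edgeR, with 0 at an unadjusted p below 0.05. Zkscan genes had 11 peaks with a median of 0.02. At an unadjusted p below 0.05 there were 1 higher and 1 lower, and 1 was called (9.09%). That was a weak promoter of Zkscan1, named because its count is 1, which had 2.57, 2.67 and 4.61 CPM in WT and 8.15, 7.15 and 8.24 CPM in KO (log2 fold change 1.28, SE 0.29, adjusted p = 6.48e-04 by edgeR). Zbtb genes, whose proteins carry a BTB domain in place of KRAB, had 49 peaks with a median of 0.08. At an unadjusted p below 0.05, 1 was higher and 2 were lower, and 1 was called (2.04%). It was at Zbtb38, a methyl-CpG binding protein, which rose from 11.1 ± 1.96 to 18.2 ± 1.96 CPM (SD, n = 3 each; 0.72, SE 0.21, adjusted p = 0.0155 by edgeR).

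A list of co-repressor, HP1 and lamina genes had no called promoter, where 1.05% of other promoter peaks were called higher and 1.05% lower. It holds the partners of KRAB proteins, other heterochromatin factors, the lamin genes Lmna and Lmnb1, and Prr14 itself. Its 29 symbols, with Fam208a as an older symbol of Tasor, matched 40 peaks at 27 genes, and no promoter peak of Cbx3 was found. Of the 40 peaks, 6 were at Ehmt1 and 5 at Atf7ip. The median was 0.15 with 31 of 40 above 0 (77.5%), beside 0.06 and 62.8% for other promoter peaks. By edgeR 3 peaks had an unadjusted p below 0.05 (2 higher and 1 lower, 7.50%), near the 7.10% of other promoter peaks. Trim28, the co-repressor itself, had 35.7, 31.0 and 31.5 CPM in WT and 34.8, 37.4 and 42.1 CPM in KO, with KO replicate 4 inside the WT range (log2 fold change 0.22, SE 0.18, adjusted p = 0.629 by edgeR). Setdb1 gave 0.15 (SE 0.25) and the HP1 genes Cbx1 and Cbx5 gave 0.13 and -0.04. Dnmt1, the maintenance DNA methyltransferase, had the smallest adjusted p of the list, with 16.9, 12.6 and 15.1 CPM in WT and 16.2, 23.1 and 26.3 CPM in KO (0.56, SE 0.20, adjusted p = 0.0721 by edgeR). There KO replicate 4 lay inside the WT range.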

How the data were processed

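Accessibility was measured by ATAC-seq in 6 muscle libraries, 3 per genotype. Tools listed by the submitters' processing notes, without their roles, are MACS2, BWA, bedtools, Trimmomatic, DESeq2 1.6.3 and deepTools, with the build GRCm38. The authors deposited 1 table of 75134 peaks with a whole-number count per peak and library. Whether reads or fragments were counted, how duplicates and reads with several matches were treated, and how peaks were merged is not given in the sources used here. Beside each count the deposited table holds a normalized signal (the count divided by 1 factor per library), a log2 fold change, raw and adjusted p-values, a score per peak and the distance to the start site; per the file headers these are the authors' values.

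Differences were tested on these counts by quasi-likelihood in edgeR 4.0.16 (R 4.3.3; glmQLFit and glmQLFTest, two-sided, TMM factors, filterByExpr with minimum count 10 and minimum total 15) over 73896 peaks, with Benjamini-Hochberg adjustment and a threshold of 0.05. Levels are TMM-scaled CPM, given as mean ± SD. An SE is the size of the log2 fold change divided by the square root of F. The common biological coefficient of variation was 0.201. Counting depth limits precision most at peaks of a few CPM. The procedure was tested on simulated data. Alternatives were other scaling factors, DESeq2 1.42.0, limma 3.58.1 (voom), no filter, other cluster windows and leaving out each library. The members and lists were chosen with earlier results of these data known. Genes were named by rule: called peaks, the 5 highest and 5 lowest by CPM, the 6 largest differences not called, the extremes of the 4 largest clusters, and Zfp57 and Zfp264. No set test was run. Promoter sequences are from RefSeq, GRCm38.p6.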

Additional observations from a re-analysis of the deposited data

How the results depend on the processing

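The count of members called higher (3) was 0 with the authors' library factors and 1 with TMM factors from promoter peaks, and 0 to 4 when a library was left out. Dropping WT replicate 8 or KO replicate 7 left 1, and dropping KO replicate 5 left 0. The count of members called lower was 1 with limma-voom and 0 otherwise, also when any library was left out. The authors' factors move the median of all peaks to 0.19, and under them the medians were 0.28 for all members, 0.26 for clustered and 0.30 for isolated genes, with other promoters at 0.26. These factors ran only from 0.977 (KO replicate 7) to 1.035 (KO replicate 5). Counts in peaks ran from 7608514 (WT replicate 8) to 12061822 (KO replicate 5), with means of 9.59e+06 in WT and 1.07e+07 in KO. Under these factors the libraries were thus scaled almost alike despite their unequal depth. When a library was left out the medians ran from 0.02 to 0.14 for members, from -0.01 to 0.13 for clustered and from 0.05 to 0.16 for isolated genes. The clustered to isolated ratio differed by -0.023 to -0.005 in that case and by 0.0014 with neighbours taken from RefSeq, which was added after the data were seen. Signs turned for 14 values of uncalled members: Zfp36 to -0.0067 with promoter TMM factors and -0.0045 with loess offsets, and Zfp940 to 0.0069 with the authors' factors. Zfp78 went to 0.0030 with median-ratio factors, 0.17 with the authors' factors, 0.0044 with DESeq2 and 0.013 with no filter. With 1 library left out, Zfp78 ran from -0.077 to 0.086, Zfp143 from -0.038 (KO replicate 7 out) to 0.22, Zfp937 from -0.093 (KO replicate 7 out) to 0.99, and Zfp410 from -0.64 to 0.11 (WT replicate 4 out). The cause of these changes was not tested. No paired analysis was possible because the groups share only 1 replicate number, 4. Depth limits the weak peaks: a member at 2 CPM had an SE near 0.5.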
